A study of Mus musculus with 6 samples.

Results

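RNA taken before immunoprecipitation (input) was compared between Dicer KO and Dicer WT macrophages grown from mouse bone marrow, on 1 array per genotype. Members of the comparison were all genes with a probe that was well above background on both input arrays: 14746 genes, read by 19882 probes, of 34767 genes on the array. The WT cells carried LysM-Cre, Dicer wt/wt and Apoe–/–, and the KO cells carried LysM-Cre, Dicer flox/flox and Apoe–/–, so that Cre and the loss of Apoe were common to both. Per the labels, bone marrow came from the femora of male mice aged 6 to 8 weeks and was grown for 7 days with L929-conditioned medium, a source of macrophage colony-stimulating factor. AGO2-RIP and IgG-RIP RNA of both genotypes was hybridised to the other 4 of 6 arrays. The number of mice, and whether input and precipitates of a genotype came from the same dishes, were not given in the sources used here. Expression of Cre in this line follows the lysozyme gene Lyz2, into which it was inserted, so recombination is limited to myeloid cells and Lyz2 itself is altered in cells that carry the allele. The labels do not say how many Cre alleles each genotype carried.

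Dicer is the ribonuclease that cuts precursor hairpins into mature miRNAs. The miRNAs are loaded into Argonaute proteins and pair through their seed, the bases near the 5′ end, with sites in target transcripts, which are then shortened at the poly(A) tail, degraded or translated less. Removal of Dicer is therefore known to deplete most miRNAs while the transcripts themselves continue to be made, and input RNA shows the steady-state level that results. In macrophages, miRNAs such as let-7, miR-155, miR-146a and miR-223 are known to act on cytokine, Toll-like receptor and lipid genes.

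Levels are log2 signals relative to the array's 75th percentile, so that 0 marks the 75th percentile of the 59305 spots and 1 unit is 2-fold. Differences are KO minus WT on that scale. Each difference rests on 1 array a side, has no replicate check and no p-value; thresholds of 2-fold describe size alone. Spots of the same probe gave a noise of 0.22 for a difference, which leaves out the culture and the amplification of the RNA. On the WT input array 37.6% and on the KO input array 41.0% of spots were well above background. Saturated spots numbered 0 on both.

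The labels were checked against transcripts of known origin. Macrophage markers were present on both arrays: 12 of 12 were measured, with a median difference of 0.01, and Itgam (9.82 in WT, 9.59 in KO), Cd68 (8.51 and 8.37) and Csf1r (5.98 and 6.03) were among the bright genes. Markers of mast cells and basophils (0 of 9 measured), eosinophils (0 of 7) and osteoblasts and adipocytes (0 of 9) were not well above background on both arrays, while 5 of 14 neutrophil markers were measured, with S100a9 at -0.40 in WT and -1.82 in KO and Mmp8 at 3.30 and 2.39. Dicer1 had 1 measured probe, at 0.22 in WT and -0.55 in KO, a difference of -0.77. Without the identity of the floxed exons, that probe checks neither the deletion nor the labels. Xist was well above background in WT only (0.14, against -4.49 in KO), and the Y-linked Ddx3y (-4.03 in WT, 0.95 in KO) and Eif2s3y (-4.16 and 0.01) in KO only, although all mice were labelled male. The Y-linked Sry, by contrast, was above background on both input arrays, at -1.21 in WT and -1.15 in KO. In AGO2-RIP and IgG-RIP, the same Xist probe was 3.92 and 5.70 in WT, and -4.65 and -4.15 in KO. Ddx3y was -4.68 and -4.12 in WT and 1.81 and 0.51 in KO, and Eif2s3y was again above background in KO only. Sry, read by 1 probe, was above background in every precipitate, at -0.13 and 1.47 in WT and 1.05 and 3.33 in KO. Sex and genotype, like slide row and genotype, cannot be told apart in any value below.

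The arrays were close to each other over most genes. Of the measured genes, 150 (1.02%) were higher in KO by 2-fold or more and 253 (1.72%) were lower by as much, 2.73% in all, and 84.8% lay within 1.5-fold. The median difference was -0.08, with 5th and 95th percentiles of -0.73 and 0.61, and Pearson's r over the genes was 0.985, which describes 2 arrays, since genes are not independent replicates. Large differences were concentrated among dim genes: of 4 equal bins by signal, the dimmest held 57 higher and 149 lower genes, and the brightest held 13 and 17. The median itself moved with signal: over 10 equal bins it was -0.15 in the dimmest, at most 0.03 in the next ones and -0.28 in the brightest. This trend is given beside some of the gene groups with many bright genes. It was not removed from the median of any group.

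**Figure D1:**
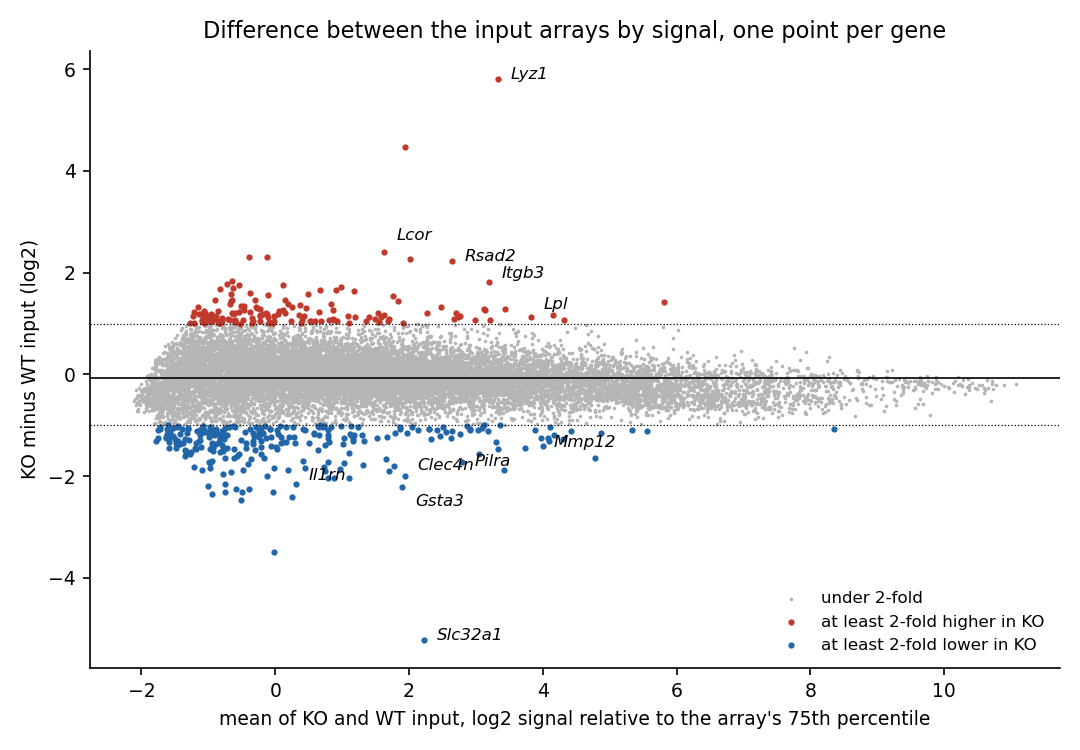
KO minus WT input difference (vertical axis, log2) of the 14746 measured genes against the mean of the KO and WT levels (horizontal axis, log2 signal relative to the 75th percentile of each array); dotted lines mark 2-fold and the solid line the median of -0.08. The 150 higher and 253 lower genes past 2-fold lie mostly at low signal, with Lyz1 and Slc32a1 farthest from 0.

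Lysozyme transcripts were the largest difference. Lyz1, which encodes an antibacterial muramidase, was 0.42 in WT and 6.23 in KO, a difference of 5.81 (56.1-fold). The neighbouring Lyz2, the macrophage lysozyme and the site of the Cre insertion, was not well above background in WT (-2.19) and was 5.66 in KO, at least 195-fold higher. Both genes lie on chromosome 10 (mm9 116724862 to 116724921 for the Lyz1 probe and 116719175 to 116719234 for the Lyz2 probe), and probes of such similar genes can share signal. The low signal was on the WT side, in cells labelled with the same Cre driver, and in AGO2-RIP Lyz1 was likewise -0.82 in WT and 5.36 in KO. The lysozyme-like gene Lyzl4 was -0.03 in WT and -0.49 in KO, with both of its probes slightly lower.

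After the lysozymes, the highest measured gene with an assigned symbol was Lcor, a ligand-dependent corepressor of nuclear receptors. It was 0.42 in WT and 2.82 in KO (2.40, or 5.28-fold). Tmem176b, a membrane protein of myeloid cells, followed a similar course from 0.87 to 3.15 (2.28), and its partner gene Tmem176a was above background in KO only (at least 2.75-fold). Itgb3, the beta 3 integrin subunit of the vitronectin receptor and of osteoclast precursors, was 2.28 in WT and 4.1 in KO, and its probes ranged from 1.38 to 1.82. Arid3b, an AT-rich DNA-binding factor and known let-7 target, was 0.12 and 1.84 (1.72). The hyaluronidase gene Hyal1 (-1.42 to 0.34), the N-acetylaspartate synthase gene Nat8l (-1.66 to 0.02) and the presynaptic scaffold gene Bsn (-1.61 to 0.17) started near the limit of detection in WT. With normexp, a background correction whose added offset itself draws differences of dim genes toward 0, they fell under 2-fold, to 0.78, 0.68 and 0.80. Aldh6a1, of valine catabolism, differed by 1.57 with its brightest probe and by 0.49 with the other, and Hif1an, the asparagine hydroxylase that restrains HIF, by 1.56 with 1 probe (0.88 with normexp). Atf7, a stress-linked transcription factor, gave 2.31 with its brightest probe and -0.37 with the other.

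Of the 15 lowest genes with an assigned symbol, as of the 15 highest, 12 had 1 measured probe. Slc32a1, the vesicular transporter of GABA and glycine, was 4.83 in WT input and -0.39 in KO (-5.22), but its second probe gave 0.49, and the bright value stood alone: the WT precipitates gave -0.31 and 0.92 and the KO precipitates 0.33 and -0.16. Gsta3, a glutathione S-transferase, was 3.01 in WT and 0.79 in KO, and its 2 probes gave -2.22 and -1.91. Il1rn, which encodes the soluble antagonist of the interleukin-1 receptor, was 1.39 and -0.77 (-2.15), and Clec4n, which encodes the fungal receptor dectin-2, 2.95 and 0.94 (-2.0). Mtap, which recycles methylthioadenosine from polyamine synthesis, was 0.65 in WT and -1.65 in KO (-2.30, and -0.99 with normexp). Lower values were also seen for Dnmt3l (-2.47), a cofactor of DNA methyltransferases, the pseudouridine synthase gene Pus7 (-2.34), the serine racemase gene Srr (-2.15), and the endosomal genes Rab4a (-2.03) and Ap3s2 (-2.01), each by 1 probe. Prg4, which encodes lubricin, and the keratin gene Krt7, both on the marker list of epithelium and mesothelium, were lower by 2.41 and 2.31 on the log2 scale. Of the 10 listed markers these 2 were measured on both arrays, the summed level of the list was 2.03 in WT and -0.35 in KO, and their part in other differences was not tested. The input difference of Prg4 was not seen in the precipitates, at 0.11 in WT and 0.13 in KO in AGO2-RIP and 0.54 and 0.65 in IgG-RIP. Krt7 was above background in KO only in AGO2-RIP, and was -1.02 in WT and -1.49 in KO in IgG-RIP.

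Agreement between probes of a gene was the only repeat measurement the arrays allowed, and it reads the same 2 RNA samples again. Among the 3573 genes with at least 2 measured probes, all probes had the same sign in 2240 (62.7%). The share was 27 of 33 for genes past 2-fold on the higher side and 38 of 43 on the lower, where the probe that chose the gene counts as one of those that agree. All probes passed 2-fold in 14 of the 33 and 15 of the 43. The other 62 probes of the higher genes had a median of 0.89, with 29 at least 2-fold higher. The other 53 probes of the lower genes had a median of -0.78, with 19 at least 2-fold lower, so that the second readings were usually smaller than the first. Many of these probes, on the higher side above all, read genomic intervals with no assigned symbol. Some intervals held several of them, so the probes do not count as separate genes. Where the brightest probe was above the median signal, all probes shared a sign for 12 of 12 higher genes, against 15 of 21 below it. For lower genes the counts were 11 of 12 and 27 of 31.

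**Figure D2:**
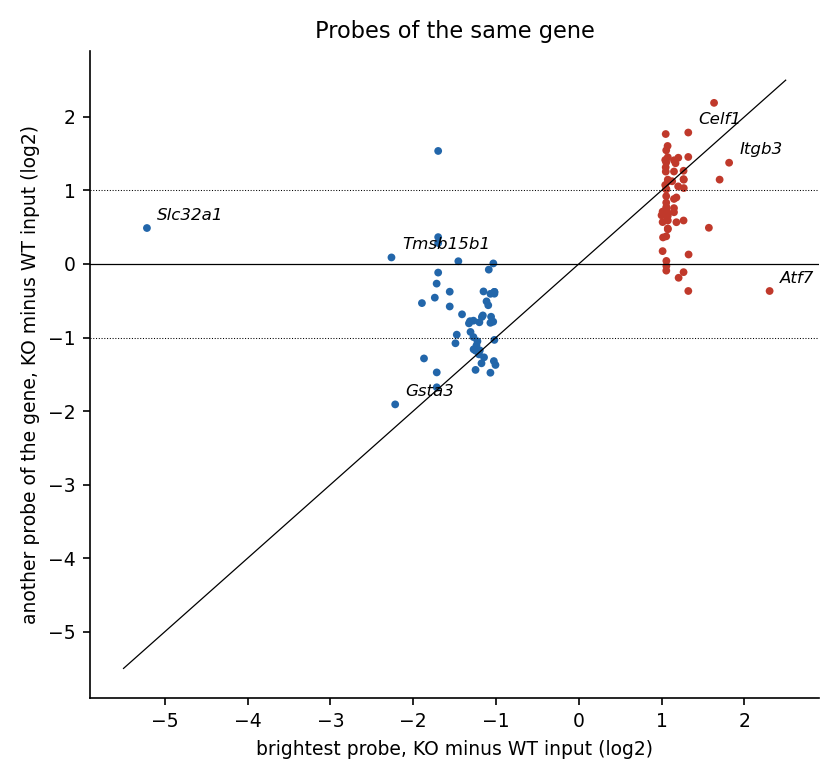
Each of 115 further probes of the 76 genes past 2-fold with at least 2 measured probes: KO minus WT input of the gene's brightest probe (horizontal axis, log2) against that of the further probe (vertical axis, log2). Of these probes 102 lie on the same side of 0 as the brightest one, and Slc32a1 and Atf7 are among the exceptions.

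Genes read by several concordant probes formed a mixed group. On the higher side, Celf1, an RNA-binding protein of splicing and mRNA decay, was 1.81 in WT and 3.14 in KO by its brightest probe, and its 3 probes ranged from 1.32 to 1.79. Lpl, the lipoprotein lipase that frees fatty acids from lipoproteins, was 3.26 and 4.39, with both probes at 1.13. Arid3a, related to Arid3b, was 1.67 and 2.87, with probes at 1.06 and 1.20. Transport and membrane-traffic genes were also present. Among them were the amino acid transporter gene Slc36a1 (1.07 to 1.61 over its probes) and the sorting nexin gene Snx30 (1.17 to 1.37). The chloride–proton exchanger gene Clcn5 (1.03 to 1.27) was read in part by a pair of probes that overlap over most of their length. The lipid transfer gene Vps13c (1.05 to 1.77) and the endocytic adaptor gene Hip1 (0.93 to 0.96) were higher as well.

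On the lower side, Pilra, an inhibitory receptor of myeloid cells, was 3.65 in WT and 1.93 in KO, and its 3 probes ranged from -1.72 to -1.47. Padi2, a peptidylarginine deiminase that makes citrulline in proteins, was 3.06 and 1.85, with probes at -1.23 and -1.21. The Padi2 probes overlap over most of their length, so they are nearly the same reading. Lmo4, a LIM-domain transcriptional adaptor, was 4.94 and 3.67, the brightest of this group. The mitochondrial iron–sulphur cluster gene Bola3 (-1.35 to -1.17 over its probes), the guanine deaminase gene Gda (-1.49 to -1.08), the ciliary GTPase gene Arl6 (-1.20 to -1.17), the antizyme inhibitor gene Azin2 (-1.24 to -1.11) and the telomere-binding gene Tinf2 (-1.32 to -1.03) were also lower by every measured probe. With normexp, Padi2 (-0.95), Bola3 (-0.996), Arl6 (-0.74), Azin2 (-0.49) and Tinf2 (-0.60), like Vps13c on the higher side (0.69), fell under 2-fold.

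Further genes were above background on 1 input array only, 1648 on that of KO and 491 on that of WT. A lower bound of at least 2-fold was reached by 73 of the 1648 genes seen in KO only and by 250 of the 491 seen in WT only. The limit of detection, from which the bound is taken, differed between the arrays, at -1.94 in WT and -2.44 in KO. Readings without a counterpart on other arrays were more frequent on the lower side: 128 of the 250, and 10 of the 73, were above background on 0 of the 4 precipitates. Among the 128 were the vomeronasal receptor gene Vmn1r7 (2.5 in WT, -4.67 in KO) and Morc2b (1.94 and -4.59). Synb, an envelope-derived fusogen gene, went the other way with -4.02 in WT and 2.82 in KO, at least 27.2-fold higher, and was above background on both KO precipitates and on 0 of the 2 WT precipitates. The neutrophil chemokine gene Cxcl2 (-0.67 in WT, -2.46 in KO) was above background on both WT precipitates and on neither KO precipitate. Between the input arrays, a lipid gene and a stress gene were above background on that of WT and not on that of KO: Ch25h, the cholesterol 25-hydroxylase (-0.07 in WT, at least 4.50-fold lower), and Chac1, a glutathione-degrading enzyme of the stress response (-0.30 in WT, at least 4.41-fold lower). In AGO2-RIP both were above background in both genotypes, Ch25h at 1.58 in WT and -1.22 in KO and Chac1 at 4.85 and 2.80.

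The AGO2-RIP and IgG-RIP arrays gave values for the same genes that the input difference had not used. Of 12407 genes measured on all 6 arrays, 22.5% were lower in KO in both precipitates and 19.7% higher in both. Of the 136 such genes at least 2-fold lower in input, 57 (41.9%) were lower in both and 17 (12.5%) at least 2-fold lower in both, against 1.29% of all. Of the 107 at least 2-fold higher in input, 33 (30.8%) were higher in both and 5 (4.67%) at least 2-fold higher in both, against 0.605% of all. Most input differences of 2-fold were thus not seen at that size and direction in both precipitates.

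Among genes with an assigned symbol, 14 were lower by 2-fold or more in all 3 fractions and 2 were higher. They included several immune surface proteins and, from outside that class, Gda, Telo2, Fkbp1b, Mmp12 and Mospd3. Il7r, the interleukin-7 receptor, was 1.69 in WT and -0.21 in KO input, a difference of -1.90; AGO2-RIP gave -1.99 and IgG-RIP -2.93. In the same order Clec4n gave -2.0, -3.09 and -1.11, Slamf9 (4.07 in WT and 2.59 in KO input) -1.47, -1.84 and -1.43, and Tnfsf9, the ligand of 4-1BB, -1.39, -1.22 and -1.5. Mmp12, the macrophage elastase, was 4.61 in WT and 3.35 in KO input and gave -1.26, -1.47 and -2.34. With normexp the input differences of Tnfsf9 (-0.90), Pilrb1 (-0.86) and, on the higher side, Trav14d-3-dv8 (0.62) fell under 2-fold. The lysophospholipase gene Pnpla7 was 2.48 and 3.76 in input, with differences of 1.28, 1.52 and 1.07, and the T-cell receptor segment Trav14d-3-dv8 gave 1.19, 2.04 and 1.98.

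**Figure D3:**
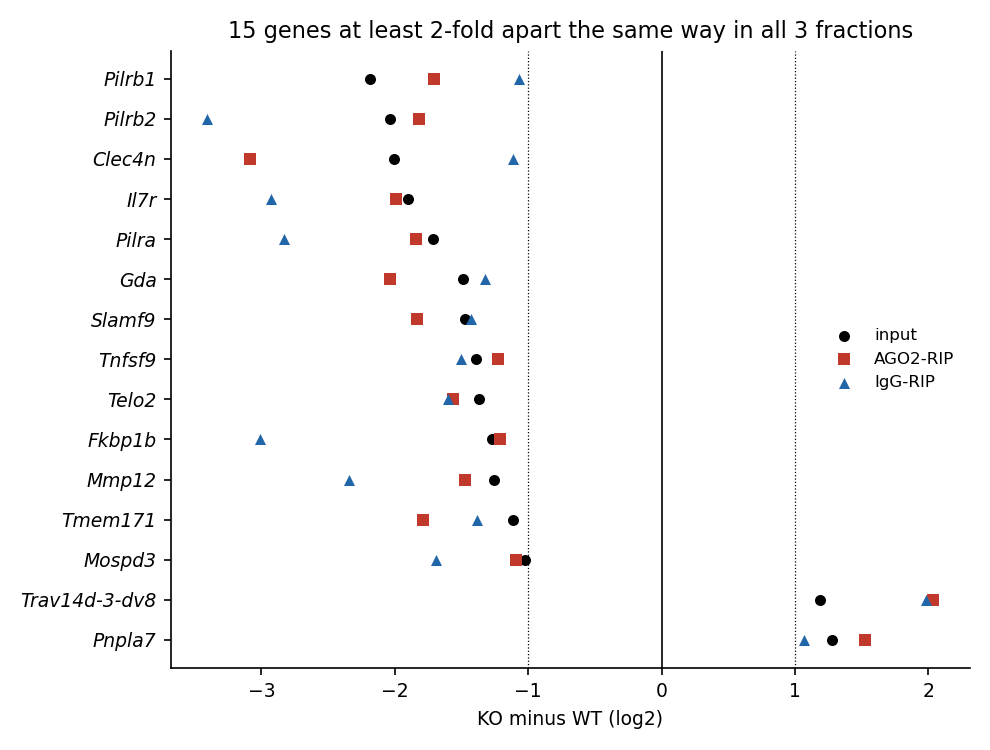
KO minus WT difference (horizontal axis, log2) in input, AGO2-RIP and IgG-RIP for 15 of the 16 genes with an assigned symbol that were at least 2-fold apart the same way in all 3 fractions, each point 1 array against 1 array; dotted lines mark 2-fold. The 13 lower genes shown include Pilra, Pilrb1 and Pilrb2, which lie side by side in the genome, and 2 genes were higher.

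The paired immunoglobulin-like type 2 receptors stood next to each other on chromosome 5 and differed together. Pilra is inhibitory and Pilrb1 and Pilrb2 are its activating partners. Pilrb1 was 0.09 in WT and -2.10 in KO input (-2.19) and Pilrb2 2.12 and 0.08 (-2.04), with probes 21.8 and 35.5 kb from the Pilra probe (mm9 chromosome 5, 138276560 to 138276619). In AGO2-RIP the differences of Pilra, Pilrb1 and Pilrb2 were -1.84, -1.71 and -1.82, and in IgG-RIP -2.83, -1.07 and -3.40. Of the 28 other measured genes within 500 kb, 2 were at least 2-fold lower in input, Mospd3 (-1.03) and Ephb4 (-1.44), and 0 were higher, with a median of -0.27. The nearest measured genes on either side, Mepce (-0.42) and Gm4963 (-0.31), were under 2-fold. The 3 receptors are similar in sequence and their probes may share signal, and the locus was singled out after its values were seen.

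**Figure D4:**
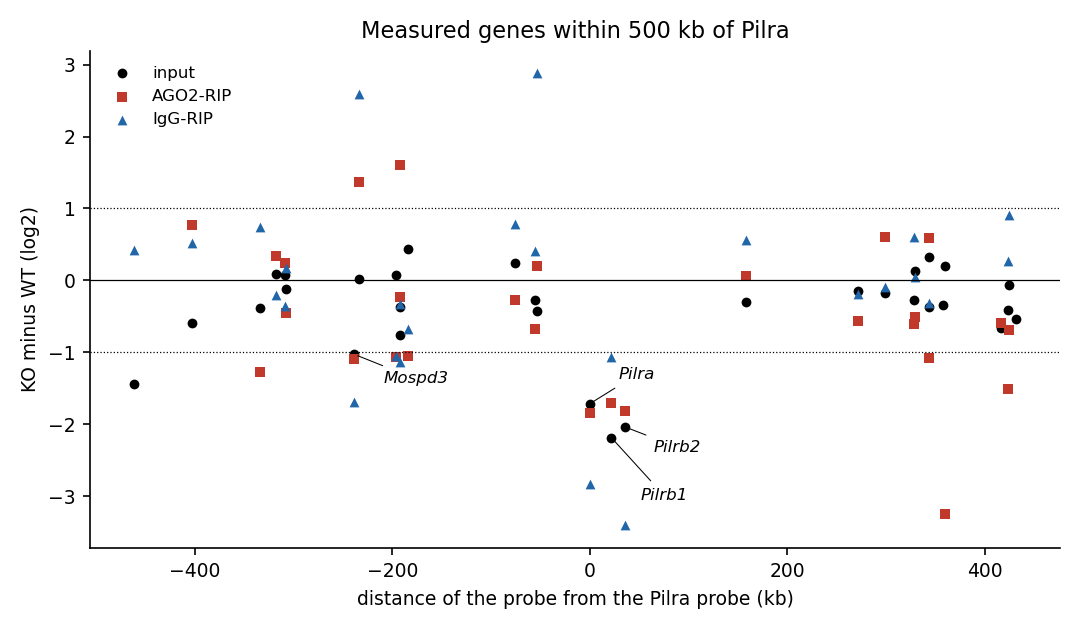
KO minus WT difference (vertical axis, log2) of genes within 500 kb of Pilra against the distance of their probe from the Pilra probe (horizontal axis, kb), in input, AGO2-RIP and IgG-RIP; a fraction is plotted where the gene was well above background on both of its arrays. Each gene is read by its brightest probe. Pilra, Pilrb1 and Pilrb2 lie below 2-fold lower in all 3 fractions, and of the 28 other genes only Mospd3 does so.

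Gene groups were described through 66 lists of known pathways, complexes and miRNA targets, each by its counts and median beside the -0.08 median of all measured genes and the shares of 1.02% higher and 1.72% lower. No list was tested, and those described were picked with their medians known. Directions given hold under the 6 alternative settings unless a turn is named.

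The miRNA machinery itself differed little. Of 23 measured genes, 1 was at least 2-fold higher and 0 lower, with a median of 0.09. Tnrc6a, a GW182 protein that links Argonautes to deadenylases, was -0.95 in WT and 0.38 in KO (1.33). Argonaute genes lay above the median: Ago2, the slicing Argonaute, was 2.20 and 3.01 with its 3 probes between 0.37 and 0.81, Ago1 was -0.34 and 0.45 (0.78 and 1.17 by its probes), and Ago3 was above background in KO only (at least 2.35-fold). Dicer1 and the RNA-editing gene Adar (-0.53, with a second probe at 0.62) were the lowest.

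Lists of miRNA targets drawn from general knowledge lay mostly at or above the overall median. For let-7, 20 targets were measured, 2 of them at least 2-fold higher (Arid3b and Arid3a) and 0 lower, with a median of 0.29 and 16 above the overall median. The third highest was Tgfbr1, a receptor of TGF-beta, at 2.74 in WT and 3.63 in KO, and the lowest were Hmga1 (-0.39, with other probes up to 0.09), Myc (-0.28) and E2f6 (-0.27). The 10 measured miR-142-3p targets had a median of 0.45, led by the actin-severing gene Cfl2 (0.83 to 1.96), Tgfbr1 and the histone methyltransferase gene Ash1l (2.49 to 3.25). For miR-29 the median of 10 was 0.23, with the DNA methyltransferase gene Dnmt3a at 2.18 and 3.33 (1.15) and the DNA dioxygenase genes Tet3 (0.71 and 1.5 by its probes) and Tet2 (0.68 and 1.06) next. Abca1, the cholesterol exporter, was the highest of 10 miR-33 targets, at 2.5 in WT and 3.77 in KO (1.26), with a list median of 0.21. Lcor was the highest of 4 measured miR-10a targets, Map3k7 (0.05) and Bcl6 (0.01) were near 0, and the lowest was at -0.29.

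Targets of the other macrophage miRNAs had medians nearer to that of all genes, or below it, in most settings. The lists for miR-155 (17 measured, median 0.01), miR-223 (12, 0.05) and miR-17~92 (12, -0.02) lay 0.09, 0.13 and 0.06 above all genes, and 0.36, 0.38 and 0.53 above with dim genes kept. Those for miR-146a (7, -0.15) and miR-21 (7, -0.28) lay below. With the median of a gene's probes the last 2 turned to 0.02 and 0.21 above all genes, and with dim genes kept to 0.02 and 0.05. Cebpb, a transcription factor of macrophage activation and a listed target of both miR-155 and miR-223, was lower, at 4.63 in WT and 3.59 in KO (-1.04).

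Sequences allowed a check of seed matches that did not depend on lists. The mature miRNAs below are from RefSeq (GRCm38.p6), with the seed in capitals, and are shown because their complements were searched for in the probes: let-7a for the list above, miR-10a for Lcor, and miR-15a and miR-221, whose matching probes had the highest medians of 23 families.
let-7a-5p: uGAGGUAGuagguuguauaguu
miR-10a-5p: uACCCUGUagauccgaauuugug
miR-15a-5p: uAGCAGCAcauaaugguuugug
miR-221-3p: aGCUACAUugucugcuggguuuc
A probe reads only 60 bases of a transcript, so a match marks a site inside the probe and its absence says nothing of the rest of the transcript. Medians for probes with a match ran from -0.15 to 0.08 over the families, against -0.07 for all 19866 probes, and 12 of 23 families lay above that value. Probes with the let-7 match CTACCTC numbered 67, with a median of 0.04, 41 of them above the overall median, 2 at least 2-fold higher and 0 lower. The opposite letters GAGGTAG gave a median of -0.03 over 39 probes. For miR-15a, TGCTGCT was found in 233 probes with a median of 0.07, and for miR-221, ATGTAGC in 52 with a median of 0.08. The miR-10a match ACAGGGT gave -0.11 over 81. The opposite letters of the miR-15a match gave 0.00 over 169 probes. No test was made of these medians.

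The let-7 matches that were at least 2-fold higher lay in probes of Ifnar1, a chain of the type I interferon receptor, and of the zinc finger gene Zfp607a, and Hmga2 is shown as a listed target with a site in a probe. Capitals mark the match, in probes on mm9 chromosomes 16, 7 and 10.
Ifnar1: gctCTACCTCaagagac
Zfp607a: taCTACCTCtggtggc
Hmga2: aaacacactaCTACCTCttaagtc
The Ifnar1 probe was -0.36 in WT and 0.86 in KO, while the brightest of the 3 Ifnar1 probes differed by 0.62. Zfp607a was -0.99 and 0.24. The Hmga2 probe was 0.48 and 1.09, a difference of 0.61, and the brightest Hmga2 probe gave 0.27.

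Interferon-stimulated genes lay above the median with few exceptions. Among 29 measured genes, 5 were higher by 2-fold or more and 0 lower by as much, the median was 0.25, and 27 lay above the overall median. Rsad2, which encodes the antiviral protein viperin, was 1.53 in WT and 3.75 in KO (2.23, or 4.68-fold). Ifit3, an RNA-sensing antiviral gene, was 0.07 and 1.74 (1.67). The related Ifit3b, which was not counted among those 5, was -0.16 and 1.5. Oas3, a synthetase that activates RNase L, was 1.11 and 2.56 (1.44), Cmpk2 -0.55 and 0.64 (1.20) and Rtp4 2.10 and 3.30 (1.20). The exceptions were Ifitm3, which blocks viral entry (7.17 and 6.25, -0.92), and Slfn5 (2.02 and 1.18, -0.84), and Mx2 was above background in WT only. Among the 16 genes alike in all 3 fractions there was 0 of this list: Rsad2 differed by 0.04 in AGO2-RIP and 1.04 in IgG-RIP.

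Promoters of these genes were read for the letters of an interferon-stimulated response element, the site bound by interferon-activated factors. The motif GAAANNGAAA on either strand lay within 250 bases before the start in 3.46% of 27025 RefSeq promoters, in 3.39% of measured genes and in 11 of 24 measured interferon-stimulated genes with a promoter. It was in 3 of the 4 list members at least 2-fold higher that had a promoter, and in 8 of the 20 others. Over all genes past 2-fold on the higher and on the lower side the shares were 4.65% and 4.86%. The stretches of 60 bases that hold the matches, in capitals, are shown for Rsad2 (GRCm38.p6 chr12:26456538-26456597, minus strand), Ifit3 (chr19:34583365-34583424, plus strand) and Oas3 (chr5:120777700-120777759, minus strand). A match is a string of letters, not a measured binding site.
Rsad2: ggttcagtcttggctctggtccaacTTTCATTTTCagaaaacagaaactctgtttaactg
Ifit3: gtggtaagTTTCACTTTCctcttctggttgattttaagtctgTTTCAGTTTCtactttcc
Oas3: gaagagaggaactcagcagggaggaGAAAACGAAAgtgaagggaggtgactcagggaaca

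Inflammatory genes lay on the other side. Of 14 measured cytokines and chemokines, 1 was lower by 2-fold or more and 0 higher by as much, with a median of -0.49 and 3 above the overall median. Ccl6 was 3.97 in WT and 2.64 in KO (-1.33), Cxcl16 2.21 and 1.34, and Ccl2, the monocyte attractant, 5.76 and 5.04 (-0.73). The highest were Cxcl9 (0.49), Ccl5 (0.28) and Nos2 (0.10). In the NF-kB pathway, which drives many of these genes, 3 of 18 were lower by 2-fold or more and 0 higher, with a median of -0.45: Tnfsf9, the inhibitor gene Nfkbid (0.40 to -0.75) and the adaptor gene Traf1 (0.32 to -0.79). Nfkb1, which encodes the p50 precursor, was highest at -0.07 and 0.42 (0.49 and 0.34 by its probes).

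C-type lectins, pattern receptors of the myeloid surface, had the second lowest median of the lists, at -0.56 over 12 measured genes. Clec4n, Clec4b1 (-0.45 to -1.92) and Clec4e, which encodes mincle (-0.24 to -1.65), were at least 2-fold lower, and Clec7a, which encodes dectin-1, was at least 2-fold higher (0.03 to 1.26). Neutrophil markers were lower beside these genes, with a median of -0.49 over 5 measured of 14 and 0 above the overall median. The summed level of that list was 7.06 in WT and 6.92 in KO, and the defining markers Ly6g, Mpo, Elane and Camp were not well above background on both arrays and reached no bound of 2-fold. Their part in the lower inflammatory and lectin values was not tested. Toll-like receptors and adaptors (22 measured, median -0.01, 0 past 2-fold either way) and macrophage identity genes (25 measured, -0.03, 0 past 2-fold) lay near all genes, the co-receptor gene Cd14 being low in both lists (4.01 and 3.12) and Lgmn, a lysosomal protease, the highest identity gene (5.33 and 6.25).

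Listed cytokine and growth factor receptors lay slightly above all genes, with 19 of 21 above the overall median, a median of 0.16, 1 at least 2-fold higher and 0 lower. Il6st, the signalling chain gp130, was 2.79 in WT and 4.07 in KO (1.28). Both TGF-beta receptor genes followed, Tgfbr1 at 0.89 and Tgfbr2 at 0.84 (3.93 and 4.78), and the lowest of the list were Il13ra1 (-0.21), Csf3r (-0.08) and Ifngr1 (-0.05). Il7r, which the list did not hold, was lower (-1.90). Csf1r, the receptor of the growth factor in the medium, differed by 0.05 at its brightest probe.

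Cholesterol synthesis genes lay mostly above the median. Of 23 measured genes, 20 lay above the overall median, with a median of 0.36 and 0 past 2-fold either way. Hmgcs1, the synthase that begins the mevalonate pathway, was 4.16 in WT and 5.13 in KO (0.97), the decarboxylase gene Mvd 2.38 and 3.28 (0.90) and Hsd17b7 0.70 and 1.48 (0.78, with a second probe at 0.63). The lowest were Ebp (-0.27), Tm7sf2 (-0.19) and Acat2 (-0.19). Across the alternative settings this list stayed 0.43 to 0.69 above all genes.

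Macrophage lipid handling was split, with 2 of 23 measured genes at least 2-fold higher, 1 lower and a median of 0.06. Abca1 and Lpl were the highest, while the fatty acid-binding gene Fabp4 was 3.83 in WT and 2.27 in KO (-1.56) and the lysosomal lipase gene Lipa 4.08 and 3.50. Apoe was 0.17 and -0.01, although both genotypes were Apoe–/–. In fatty acid oxidation 0 of 26 genes passed 2-fold, with a median of 0.04 and 21 above the overall median, among them the carnitine palmitoyltransferase gene Cpt2 (0.46 and 0.18 by its probes) and the thiolase gene Acaa2 (0.33).

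Nuclear genes of the respiratory chain were mostly lower by small amounts, a direction relative to all genes that turned when dim genes were kept. Of 37 subunits of complex I, 0 passed 2-fold and 32 lay below 0, with a median of -0.30, from Ndufc1 (-0.68) and Ndufb9 (-0.64) to Ndufs1 (0.20). Complexes II to V had a median of -0.26 over 42 genes, 1 of them at least 2-fold lower (Cox6a2, 0.75 to -0.59), with Uqcrq (6.22 to 5.52) next and Sdha (0.32) highest. In the brightest of 10 bins, whose own median was -0.28, lay 8 of the 37 complex I genes and 20 of the 42. Relative to all genes, complex I stood at -0.23 and complexes II to V at -0.18, and after quantile normalization at -0.10 and -0.04. With dim genes kept, which lowers the median of all genes to -0.33, these values turned to 0.03 and 0.07.

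Cytosolic ribosomal proteins were uniformly lower. All 85 measured genes had a negative difference, from -0.85 (Rpl12) to -0.06 (Rps4l), with a median of -0.50, 2 above the overall median and 0 past 2-fold. Rpl12 was 7.71 in WT and 6.86 in KO, Rps20 7.64 and 6.80 and Rpl22 5.82 and 4.99, and the second Rpl22 probe gave 0.05. Of the 85, 77 lay in the brightest of 10 bins by signal. Relative to all genes the list stood at -0.42, and at -0.21 after quantile normalization, which gives both arrays one distribution of signals. Similar copies and pseudogenes may share signal with these probes.

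Host genes of small nucleolar RNAs and other nuclear non-coding RNAs had the lowest median, -0.71 over 15 measured, with 3 at least 2-fold lower and 0 higher. Gas5, a snoRNA host whose transcripts turn over with translation, was 4.47 in WT and 3.01 in KO (-1.45), but its second probe gave 0.04. The spliceosomal RNA Rnu2-10 was 0.63 and -0.76 and Snhg6 3.61 and 2.56 (-1.05). Neat1, the architectural RNA of paraspeckles, was highest, at 1.96 and 2.71. Background correction by normexp brought this list from -0.63 to -0.26 relative to all genes, and keeping dim genes brought it to -0.13.

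Stress programmes were lower at several known targets of ATF4, the transcription factor of the integrated stress response. Of 27 measured genes of that response and of the unfolded protein response, 4 were lower by 2-fold or more and 1 was higher, with a median of -0.27. Trib3, a pseudokinase, was 1.90 in WT and 0.03 in KO (-1.87), the asparagine synthetase gene Asns 2.68 and 1.59 (-1.09), the serine synthesis gene Phgdh 0.95 and -0.11 (-1.48 to -0.80 over its 3 probes), and Cebpb was also lower. The exception was Ddit4, an inhibitor of mTORC1, at 1.04 and 2.06 (1.02). Hypoxia-responsive genes had a median of -0.33 over 18, with Ankrd37 (-0.49 to -2.01) and Hilpda (-0.20 to -1.36) at least 2-fold lower and Kdm3a (0.68) highest. Relative to all genes the stress list turned from -0.19 to 0.06 with dim genes kept, and the hypoxia list moved from -0.25 to -0.04. In the glutathione and NRF2 list, Gsta3 and the plasma peroxidase gene Gpx3 (2.15 to 0.90) were at least 2-fold lower among 36 measured genes, and 0 were higher (median -0.17, and 0.15 above all genes with dim genes kept). In the brightest of 10 bins, whose own median was -0.28, lay 12 of these 36 genes and 6 of the 27 of the stress list.

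**Figure D5:**
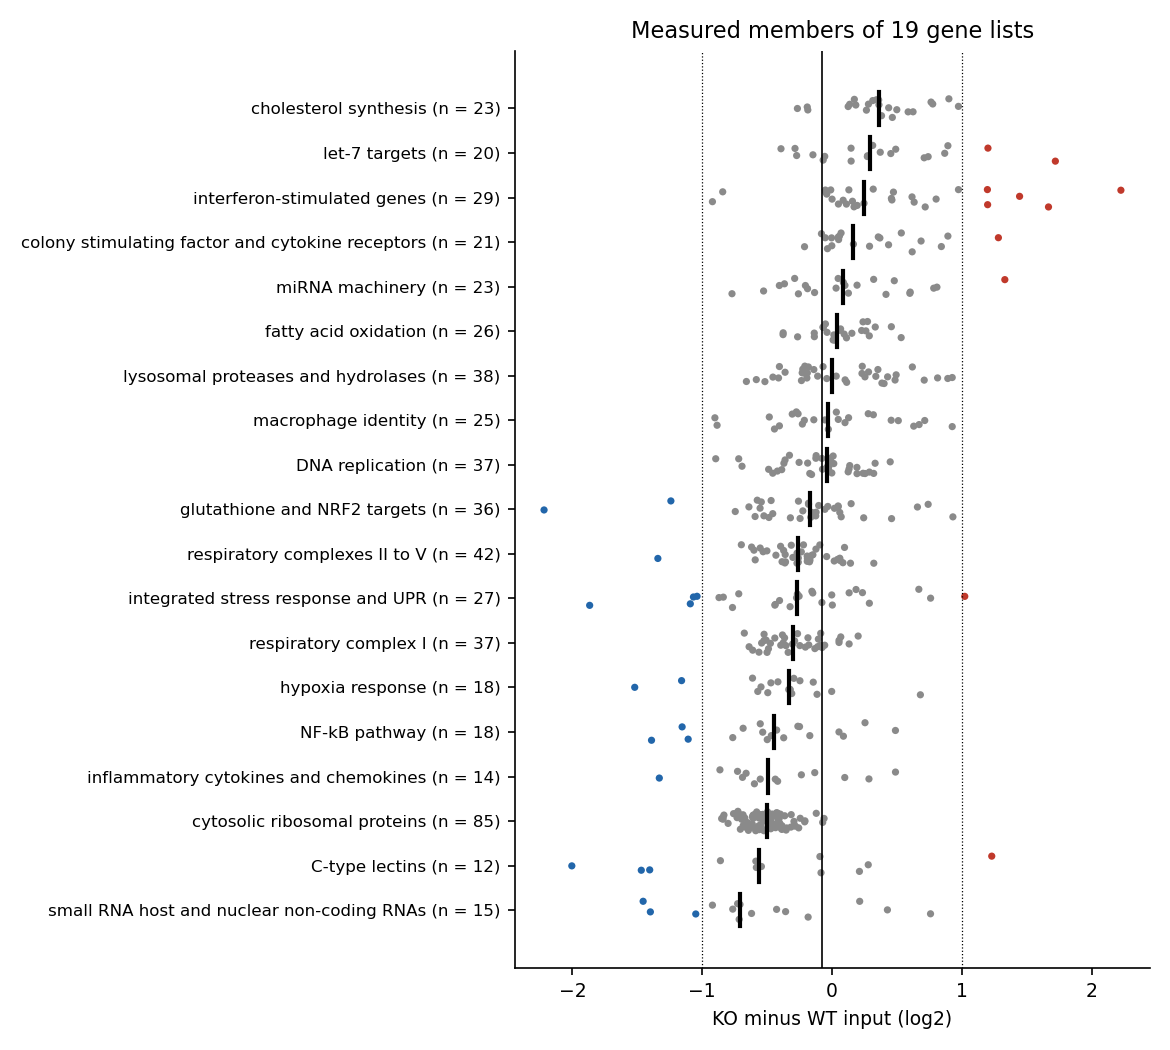
KO minus WT input difference (horizontal axis, log2) of every measured member of 19 gene lists, with the number measured in brackets; thick bars mark list medians, the solid line the median of all genes (-0.08) and dotted lines 2-fold, and vertical spread within a row carries no meaning. Ribosomal protein genes form a tight group around -0.50, cholesterol synthesis genes lie mostly above 0, and the interferon list holds 5 points past 2-fold on the higher side.

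Proliferation, protein turnover and organelle genes gave little. In DNA replication (37 measured, median -0.04) and in mitosis and cell cycle control (44, -0.01) 0 genes passed 2-fold either way, from Rrm2 (-0.90) and E2f8 (-0.88) to Top2a (0.50). The proteasome (36, 0.02), lysosomal hydrolases (38, 0.00) and the vacuolar proton pump (18, 0.09) likewise had 0 past 2-fold. Among p53 targets 1 of 23 was at least 2-fold higher, which was Ddit4, and the median was 0.14.

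Differences were spread over the genome. Chromosome medians ran from -0.04 on chromosome 18 to -0.10 on chromosome 6 among the autosomes. The X had a median of -0.12, and the 7 measured genes of the Y had a median of -0.19, with 0 past 2-fold. Genes above background on 1 input array only were not in these counts. Among them, Ddx3y and Eif2s3y on the Y were at least 7.41-fold and 3.87-fold higher in KO. Xist on the X was at least 5.96-fold lower. Within 10 Mb of Dicer1, 2.92% of 137 measured genes passed 2-fold, against 4.21% of 95 around Lyz2 and 2.28% of 219 around Apoe, with 2.73% of all genes as background. Around Lyz2, the 4 genes past 2-fold were Lyz1, Csrp2 (-1.36), Phlda1 (-1.23) and Slc16a7 (1.33, with a second probe at 0.13).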

How the data were processed

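Macrophage RNA was reverse-transcribed, pre-amplified, and 500 ng of cDNA was cut with restriction enzymes and labelled with Cy3, per the labels' protocols. The deposited files are Agilent Feature Extraction 10.7.3.1 output, per the submitters' processing notes. Their processed signal is a linear intensity with background subtracted and no scaling between arrays, per the file headers. All 6 arrays lay on 1 slide, with each genotype in its own slide row. Here, outlier and control spots were left out, signals were divided by the array's 75th percentile and log2-transformed, and spots of a probe were averaged. A gene was read by its brightest probe among those well above background on both input arrays. Where 1 input array was dim, the difference was bounded with the lowest signal well above background on that array. Names came from RefSeq (27741 probes by accession, 3347 by symbol and 312 by synonym, while 24281 kept the array's name), and coordinates are those of the array files (mm9). Named genes were the 15 highest and 15 lowest, the 12 highest and 12 lowest with concordant probes, the 6 largest bounds each way, genes alike in all 3 fractions, fixed genes, and the 3 highest and lowest or the 2-fold members of a described list; others were picked after their values were seen, and a few named by the rule are not reported here. These rankings, and the largest bounds, were taken among genes with an assigned symbol. The members and lists were chosen with earlier results of these data known. The number of arrays, 1 a group, limits precision, and no test was possible. Alternatives were normexp (offset 50), median centring, quantile normalization, 2 other filters on dim genes, kept outlier spots and 2 other ways to combine probes. Steps were tested on simulated data, with Python 3.11.15, numpy 2.4.6, pandas 2.3.3, R 4.3.3 and limma 3.58.1.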

Additional observations from a re-analysis of the deposited data

How the results depend on the processing

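No paired analysis was possible because each genotype has 1 input array. The counts of 150 higher and 253 lower genes moved by less than 1.5 times with median centring (172 and 240), quantile normalization (162 and 241), the median of a gene's probes (144 and 245) and outlier spots kept (151 and 257). They moved further with normexp (41 and 51), with no filter on dim genes (1390 and 2172) and with genes above background on all 6 arrays (137 lower, beside 108 higher). So did they with genes whose 2 or more probes all passed 2-fold (14 and 15). Fewer genes entered the last 2 settings, and dim genes entered the one with no filter. Normexp adds an offset that draws differences of dim genes toward 0, and with it the SD of all differences shrank from 0.44 to 0.30. How much of this came from the offset was not tested. Of the named genes' values, 313 stayed within the spot noise and 51 moved, 45 of them under normexp, where 19 of the 54 named genes past 2-fold fell under it. Of the list medians relative to all genes, 339 stayed, 48 moved (44 with no filter) and that of complex I turned from -0.2264 to 0.0265 with no filter. Counting turns of any size, 18 of 65 lists changed sign relative to all genes with no filter, 5 with normexp, 3 each with quantile normalization and the median of probes, 0 with median centring, and 1 of 63 with genes above background on all 6 arrays. Keeping all genes moves the median of all genes from -0.08 to -0.33. Depth of signal limits dim genes: 206 of the 403 genes past 2-fold lay in the dimmest of 4 equal bins.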
